A study of Mus musculus with 10 samples.

Results

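Cd4, Zbtb7b, Gata3, Rora, Foxp3, Ikzf2 and Cd40lg form the group of CD4, regulatory and helper lineage genes described here: 7 genes taken by name from the 57825 genes of the expression table, where each of them was listed. Their levels were compared between CD8+ T cells kept with 4T1 cells in co-culture (CD8+4T1, n = 5) and CD8+ T cells of such a co-culture with sodium acetate (CD8+4T1+NaAc, n = 5). The general co-culture method describes activation for 12 h with anti-CD3, anti-CD28 and IL-2, then NaAc for 24 h, then co-culture for 48 h. The RNA sequencing method gives 5 mM NaAc, and neither it nor the labels, which name acetate together with the co-culture, say whether NaAc was given before the co-culture, during it or both. The T cells had been isolated with a CD8+ selection kit from the spleens of female Balb/c mice, and mice of the study were 7 to 8 weeks old when used. The labels give day 3 as the time. 4T1 is a mammary carcinoma line of the same strain. RNA was taken from purified CD8+ T cells, and no labels or methods say whether the 5 samples of a group came from separate mice or cultures, so p-values measure the spread between these samples, which may be technical. No group without 4T1 cells and no group of CD4+ T cells was part of the comparison. The methods give no purity of the isolated cells.

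CD4 and CD8 T cells part ways in the thymus. Zbtb7b (ThPOK) holds cells in the CD4 helper fate, while Runx3 silences Cd4 and Zbtb7b in cells that become CD8 killers. Helper cells then divide into subsets that are each named for a leading transcription factor: Tbx21 (T-bet) for Th1, Gata3 for Th2, Rora among others for Th17, Bcl6 for follicular helper (Tfh) and Foxp3 for regulatory (Treg) cells, the last of which also carry Ikzf2 (Helios). Cd40lg, the ligand through which helper cells activate B cells and dendritic cells, belongs to the activated helper cell. Activated CD8+ T cells can use several of the same factors, so a transcript of this group in a CD8+ sample is not by itself the mark of a CD4+ cell.

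RefSeq promoter sequences (GRCm38.p6) were found for 4 of the 7 genes, Gata3, Zbtb7b, Foxp3 and Rora, and the 250 bases before a start were searched on both strands for TGTGGT (the core bound by RUNX factors), AGATAA (bound by GATA factors), AGGTCA (bound by ROR factors), TGTTTA (forkhead factors) and CANNTG (the E-box). Of 32851 promoters of the same length, 14.0% held TGTGGT, 9.99% AGATAA, 14.0% AGGTCA, 12% TGTTTA and 66.2% CANNTG. The Gata3 start is shown because it is the promoter found for a gene that changed with NaAc, the second Zbtb7b start because it carries the RUNX letters, and the second Foxp3 start because it carries GATA and ROR letters, which are the names of other genes of the group. Letters of the RUNX, GATA and ROR motifs are in capitals.
Gata3, chr2:9878601-9878850, minus strand: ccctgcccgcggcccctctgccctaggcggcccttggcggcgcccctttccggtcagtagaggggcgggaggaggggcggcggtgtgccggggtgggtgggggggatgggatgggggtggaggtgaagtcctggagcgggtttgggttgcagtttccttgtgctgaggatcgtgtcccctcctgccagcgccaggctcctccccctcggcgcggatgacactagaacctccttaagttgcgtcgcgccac
Zbtb7b, second start, chr3:89387672-89387921, minus strand: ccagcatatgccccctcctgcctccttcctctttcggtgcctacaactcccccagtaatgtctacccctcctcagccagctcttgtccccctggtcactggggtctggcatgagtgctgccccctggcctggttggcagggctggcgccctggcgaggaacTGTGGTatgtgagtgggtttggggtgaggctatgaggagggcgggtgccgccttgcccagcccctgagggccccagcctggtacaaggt
Foxp3, second start, chrX:7580233-7580482, plus strand: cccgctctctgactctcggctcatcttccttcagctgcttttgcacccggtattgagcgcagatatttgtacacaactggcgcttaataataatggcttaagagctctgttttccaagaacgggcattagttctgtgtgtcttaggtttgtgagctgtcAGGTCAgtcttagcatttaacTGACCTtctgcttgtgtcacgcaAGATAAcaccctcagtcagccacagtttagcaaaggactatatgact
The Gata3 sequence was 70.0% G and C and held none of the 5 motifs. The Zbtb7b sequence held TGTGGT 89 bases before the start. The Foxp3 sequence held AGGTCA 91 bases before the start, its reverse complement TGACCT 70 bases before it and AGATAA 47 bases before it. The last 2 sequences also held CANNTG, 246 bases before the start in Zbtb7b and 219 and 177 bases before it in Foxp3, and none of these letters overlapped those of another motif. Of the starts not shown, the first of Zbtb7b held CANNTG at 2 places, the first of Foxp3 held CANNTG and the reverse complement of TGTTTA, and that of Rora held none of the 5. A match is a description of these letters and not a bound site, and no match says only that the letters are not in this window.

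FPKM, fragments per kilobase of gene length scaled to the depth of the sample, can be set side by side between genes. The 10 samples rested on 16306447 to 18853726 fragments each, and 20233 to 25088 genes were above 0 per sample. The listed genes held 95.5% to 97.9% of these fragments without and 89.8% to 92.1% with NaAc, and their FPKM summed to 310965 to 335151 without and 282995 to 295928 with NaAc. Both measures thus separated the groups, and their part in the results was not tested beyond the other scalings given below. Replicate 1 of each group stood apart in that number, with 22291 genes in CD8+4T1 against 23786 to 24054 in the other 4 and with 20233 in CD8+4T1+NaAc against 24681 to 25088, so results without these samples are also given for the 7 genes and for other named genes whose call rests on them. Cd8a, the defining CD8 chain, was at 76.0 to 81.9 FPKM without and 72.2 to 81.6 FPKM with NaAc, and Cd8b1 at 138.1 to 161.6 and 124.9 to 186.7 FPKM (called higher without replicate 1 of both groups, by 0.24 with a limma adjusted p of 0.00586). Transcripts of both CD8 chains were thus present in every sample. These levels do not say whether RNA of other cells was present too, and markers of such cells are given below. Unless another test is named, differences are log2 fold changes of FPKM + 0.1, CD8+4T1+NaAc minus CD8+4T1, with their standard errors (SE), 95% confidence intervals and Benjamini-Hochberg adjusted p from limma over the 15710 genes whose mean reached 0.5 FPKM.

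Cd4 and Gata3 were higher with NaAc, while Zbtb7b, Rora, Ikzf2, Cd40lg and Foxp3 did not pass the test. Cd4 rose 2.96-fold and Gata3 1.5-fold by the ratio of the group means, and for both genes every NaAc sample lay above every sample without NaAc. 6 of the 7 genes passed the filter on low values, Cd40lg through its NaAc samples alone, and 2 of these 6 were called at an adjusted p under 0.05, both higher. Over all genes tested 36.5% were called, 17.6% higher and 19.0% lower, and the groups did not overlap for 26.4% of them, 13.1% higher, so 2 of 6 is near the background and says nothing particular about these genes as a group.

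**Figure D1:**
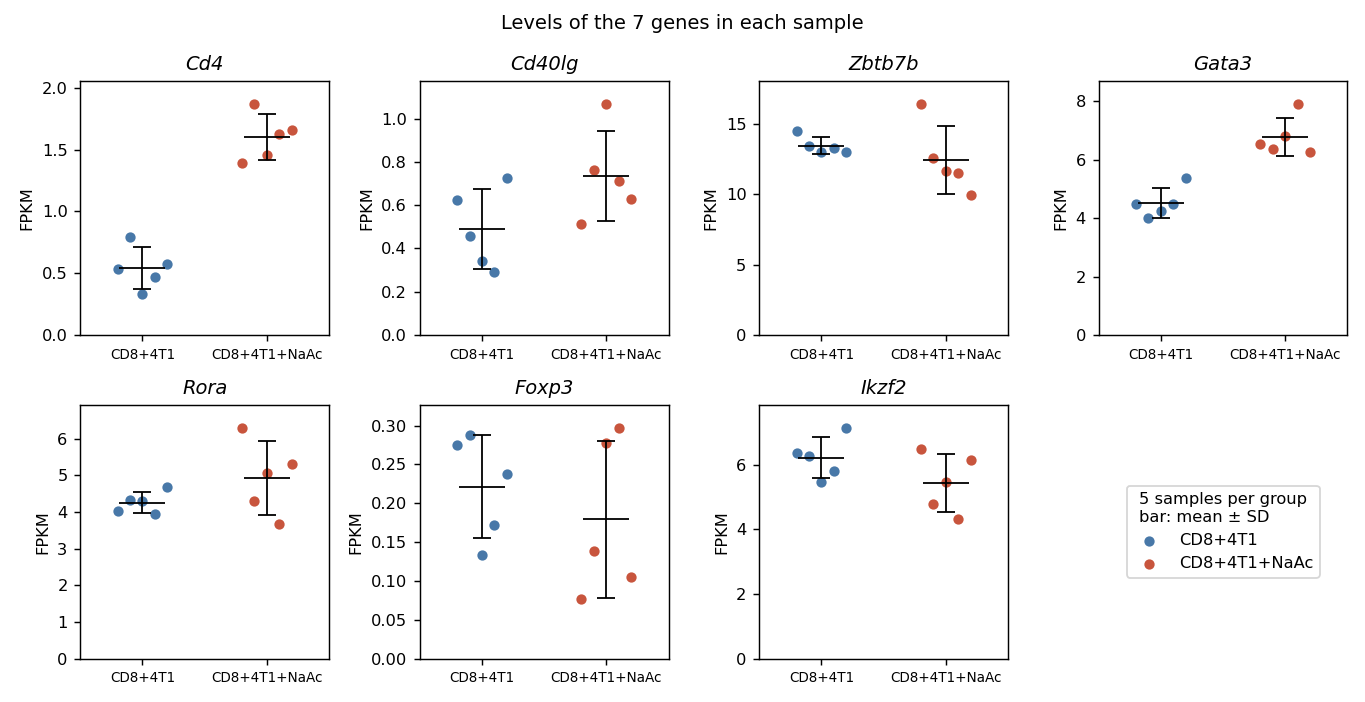
FPKM of each of the 7 genes (vertical axes, linear and from 0, each gene with its own range) in the 5 CD8+4T1 (blue) and 5 CD8+4T1+NaAc (red) samples, in the order of replicates 1 to 5 within a group, with the mean and SD in black. The groups are separate for Cd4 (0.335 to 0.796 against 1.39 to 1.87 FPKM) and Gata3 (4.02 to 5.39 against 6.28 to 7.91 FPKM) and overlap for the other 5 genes.

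The levels spanned a wide range within a sample. Without NaAc the order of mean FPKM was Zbtb7b (13.5 ± 0.602, SD, n = 5), Ikzf2 (6.21 ± 0.633), Gata3 (4.53 ± 0.520), Rora (4.25 ± 0.289), Cd4 (0.541 ± 0.169), Cd40lg (0.489 ± 0.184) and Foxp3 (0.221 ± 0.0663). The samples of neighbours in this order overlapped for Gata3 and Rora and for Cd4 and Cd40lg, so these pairs could not be ranked. With NaAc the order was Zbtb7b (12.4 ± 2.41), Gata3 (6.78 ± 0.662), Ikzf2 (5.44 ± 0.902), Rora (4.93 ± 1.0), Cd4 (1.60 ± 0.187), Cd40lg (0.736 ± 0.207) and Foxp3 (0.179 ± 0.102). The ranges of Gata3, Ikzf2 and Rora over the samples overlapped along that order. Within each NaAc sample, however, Gata3 was above Ikzf2 and Ikzf2 above Rora. In every sample without NaAc, Gata3 was below Ikzf2. The range of Cd4 was clear of that of Cd40lg only with NaAc. Those changes of order were not tested.

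Cd4 encodes the co-receptor for MHC class II that defines helper T cells and binds the kinase Lck. The table lists it on chromosome 6 from 124841655 to 124865184, minus strand (ENSMUSG00000023274). In the CD8+4T1 samples 1 to 5 Cd4 was at 0.534, 0.796, 0.335, 0.467 and 0.571 FPKM. In the CD8+4T1+NaAc samples it was at 1.39, 1.87, 1.46, 1.63 and 1.66 FPKM. The lowest NaAc sample lay well above the highest sample without NaAc. The difference was 1.44 on the log2 scale (SE 0.20, interval 1.0 to 1.88, limma adjusted p = 0.000317), and 22 to 142 fragments per sample stood behind these values. A difference of more than 1 on the log2 scale at an adjusted p under 0.05 was found for 6.47% of all genes tested, and of the 7 genes Cd4 was the one among them. Without replicate 1 of both groups the difference was 1.49 (adjusted p = 0.000853). In bulk RNA, a change in the number of cells that carry a transcript and a change in its amount per cell cannot be told apart.

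Cd4 remained a minor transcript beside Cd8a in every sample. Its FPKM came to 0.703%, 1.03%, 0.419%, 0.596% and 0.697% of that of Cd8a in the CD8+4T1 samples. With NaAc it came to 1.92%, 2.59%, 1.81%, 2.16% and 2.03%. Cd8a itself differed by -0.04 (SE 0.05, limma adjusted p = 0.559), and by 0.14 (adjusted p = 0.0475) when every sample was brought to the same total FPKM. The log2 ratio of Cd4 to Cd8a was higher by 1.48 with NaAc (exact permutation test, two-sided, p = 0.00794, which is the smallest p that 5 against 5 samples allow, and 0.0119 adjusted over 3 ratios). It was higher in each NaAc sample than in any sample without NaAc.

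Lck, the kinase that docks on the tails of CD4 and CD8, and Runx3, which silences Cd4, are the nearest partners of Cd4. Lck was at 138.8 ± 6.31 FPKM without and 111.4 ± 4.81 FPKM with NaAc, a difference of -0.32 (SE 0.05, limma adjusted p = 0.000614) that was -0.10 (adjusted p = 0.325) when samples were scaled to T cell markers. Runx3 was at 48.2, 43.2, 41.7, 44.3 and 42.9 FPKM in the CD8+4T1 samples and at 61.3, 33.2, 34.4, 35.6 and 34.4 FPKM in the CD8+4T1+NaAc samples. NaAc replicate 1 was the highest of all 10 samples and the other 4 NaAc samples were the lowest. With all samples the difference of Runx3 was -0.19 (SE 0.15, adjusted p = 0.366), and without replicate 1 of both groups it was -0.32 (adjusted p = 0.000227), while its sign turned to 0.03 when samples were scaled to T cell markers. Cbfb, the subunit that Runx3 needs to bind DNA, fell from 53.6 ± 3.01 to 33.0 ± 7.10 FPKM (-0.72, SE 0.12, adjusted p = 0.000868).

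Cd40lg is listed on chromosome X from 56257503 to 56269402, plus strand (ENSMUSG00000031132). It was at 0.622, 0.459, 0.343, 0.291 and 0.727 FPKM in the CD8+4T1 samples and at 0.515, 0.764, 1.07, 0.709 and 0.626 FPKM in the CD8+4T1+NaAc samples. The groups overlapped, and the values rest on 6 to 22 fragments per sample. The difference was 0.53 (SE 0.29, interval -0.10 to 1.16, limma adjusted p = 0.176), so the interval held both 0 and the change seen for Gata3. Without replicate 1 of both groups it was 0.72 (adjusted p = 0.0785). Its receptor Cd40, which B cells and other antigen-presenting cells carry, was at 0.887 ± 0.208 and 0.747 ± 0.222 FPKM, a difference of -0.23 (SE 0.24, adjusted p = 0.488).

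Zbtb7b was the most abundant of the 7 genes in both groups. It is listed on chromosome 3 from 89284951 to 89302083, minus strand (ENSMUSG00000028042), and overlaps the lncRNA gene Gm15417 on the other strand, which was at 0.189 to 0.890 FPKM. Zbtb7b was at 14.5, 13.5, 13.0, 13.3 and 13.0 FPKM in the CD8+4T1 samples and at 16.4, 12.6, 11.7, 11.5 and 9.97 FPKM in the CD8+4T1+NaAc samples. As for Runx3, NaAc replicate 1 was the highest of all 10 samples and the other 4 NaAc samples lay below every sample without NaAc. The difference over all samples was -0.13 (SE 0.11, interval -0.37 to 0.11, limma adjusted p = 0.385). Without NaAc replicate 1 it was -0.24 (adjusted p = 0.0156), and without replicate 1 of both groups -0.21 (adjusted p = 0.0318). The sign depended on the scaling, with 0.04 when every sample was brought to the same total FPKM (adjusted p = 0.80) and 0.09 when samples were scaled to T cell markers (adjusted p = 0.731).

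The balance of Zbtb7b and Runx3, the pair of factors that oppose each other in the choice between CD4 and CD8 fate, was nearly constant without NaAc. Zbtb7b came to 30.0%, 31.2%, 31.2%, 30.0% and 30.4% of Runx3 in the CD8+4T1 samples. With NaAc it came to 26.8%, 37.9%, 34.0%, 32.4% and 29.0%. The groups overlapped, and the spread was 4.32 percentage points (SD) with NaAc against 0.603 without. The mean log2 ratio differed by 0.06 (exact permutation test, two-sided, p = 0.540), and by 0.12 without NaAc replicate 1.

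**Figure D2:**
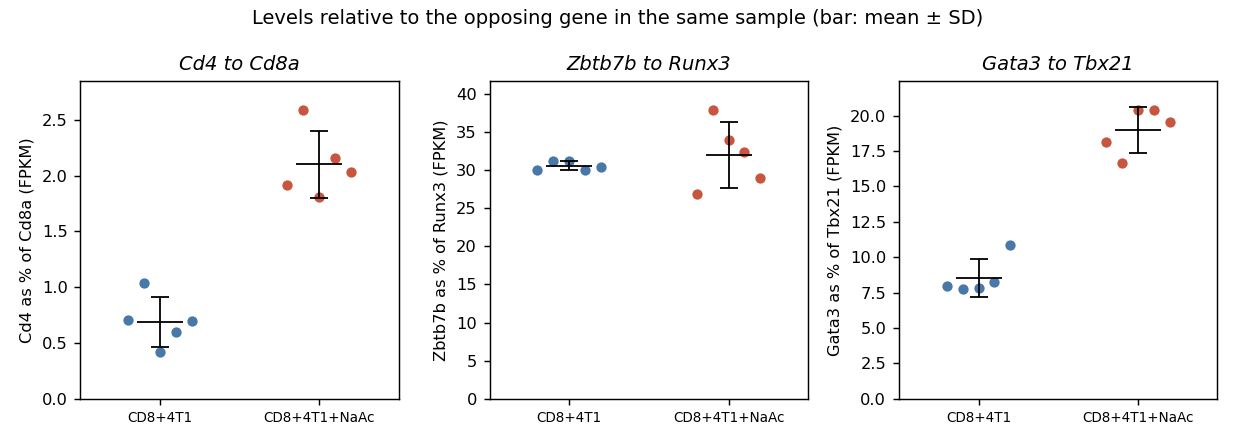
FPKM of Cd4 as a percentage of Cd8a, of Zbtb7b as a percentage of Runx3 and of Gata3 as a percentage of Tbx21 in the same sample (vertical axes, linear and from 0), for the 5 CD8+4T1 (blue) and 5 CD8+4T1+NaAc (red) samples with the mean and SD in black. The groups are separate for Cd4 to Cd8a (0.419% to 1.03% against 1.81% to 2.59%) and for Gata3 to Tbx21 (7.72% to 10.9% against 16.6% to 20.4%) and overlap for Zbtb7b to Runx3.

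Gata3, the leading factor of Th2 cells and a factor of T cell development, is listed on chromosome 2 from 9861889 to 9894845, minus strand (ENSMUSG00000015619). It was at 4.48, 4.02, 4.25, 4.49 and 5.39 FPKM in the CD8+4T1 samples and at 6.54, 6.36, 6.82, 7.91 and 6.28 FPKM in the CD8+4T1+NaAc samples. Replicate 5 was the highest without NaAc and replicate 4 the highest with NaAc, and the groups did not overlap. The difference was 0.57 (SE 0.09, interval 0.37 to 0.78, limma adjusted p = 0.000671), with 276 to 532 fragments per sample. It was 0.58 without replicate 1 of both groups (adjusted p = 0.00215). Its span overlaps Gm13256, 9230102O04Rik and 4930412O13Rik, which reached at most 0.932, 0.569 and 0.527 FPKM, and the strand setting of the counting is not given in the sources used here, so fragments of these genes may be part of the Gata3 value.

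Of the 11 genes of the Th2 list that were tested, 4 were higher with NaAc, 1 was lower and 6 did not pass the test. That is 45.5% called beside 36.5% of all genes tested. Gfi1, a repressor that Gata3-expressing cells use to expand, was at 26.6 ± 5.85 FPKM without and 43.0 ± 4.77 FPKM with NaAc (0.71, SE 0.13, limma adjusted p = 0.00177), and its FPKM correlated with that of Gata3 over the 10 samples (Pearson r = 0.98 on the log2 scale), which is a description of samples that share 2 groups. Zfpm1 (FOG-1), a cofactor that binds GATA proteins and stands in the list of partner proteins rather than that of Th2 genes, rose from 13.8 ± 1.97 to 21.95 ± 1.24 FPKM (0.68, SE 0.09, adjusted p = 0.000329). The chemokine receptors Ccr8 and Ccr4, which are typical of Th2 and regulatory cells, rose from 0.956 ± 0.330 to 2.73 ± 0.450 FPKM (1.46, SE 0.20, adjusted p = 0.000338) and from 12.5 ± 1.94 to 21.4 ± 3.70 FPKM (0.76, SE 0.13, adjusted p = 0.00116). The Th2 cytokine genes did not pass the test. Il13 was at 26.1 ± 2.34 and 25.2 ± 5.93 FPKM (-0.08, SE 0.15, adjusted p = 0.706), while Il4 reached at most 1.08 FPKM and Il5 at most 1.02 FPKM in any sample.

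Tbx21, the leading Th1 factor and the counterpart of Gata3, fell. It was at 56.4, 52.1, 54.4, 54.5 and 49.6 FPKM in the CD8+4T1 samples and at 36.1, 38.3, 33.5, 38.8 and 32.2 FPKM in the CD8+4T1+NaAc samples. The groups did not overlap, and the difference was -0.58 (SE 0.06, limma adjusted p = 7.5e-05), which kept its sign and call when samples were brought to the same total (-0.40) or scaled to T cell markers (-0.36). Gata3 came to 7.95%, 7.72%, 7.82%, 8.23% and 10.9% of Tbx21 without NaAc and to 18.1%, 16.6%, 20.4%, 20.4% and 19.5% with NaAc. The log2 ratio was higher by 1.15 with NaAc (exact permutation test, two-sided, p = 0.00794, adjusted over 3 ratios 0.0119). Tbx21 nevertheless stayed above Gata3 in FPKM in every sample.

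Rora, which encodes the nuclear receptor ROR-alpha of Th17 cells and innate lymphoid cells, is listed on chromosome 9 from 68561068 to 69295528, plus strand (ENSMUSG00000032238), and overlaps the lncRNA gene Gm15511. It was at 4.03, 4.32, 4.29, 3.95 and 4.68 FPKM in the CD8+4T1 samples and at 6.30, 4.29, 5.06, 3.68 and 5.32 FPKM in the CD8+4T1+NaAc samples. The NaAc samples held both the highest and the lowest value. The difference was 0.19 (SE 0.13, interval -0.10 to 0.47, limma adjusted p = 0.284), and it was 0.36 with an adjusted p of 0.0486 when every sample was brought to the same total FPKM. It was 0.09 (adjusted p = 0.512) without NaAc replicate 1, the highest sample, and 0.08 (adjusted p = 0.633) without replicate 1 of both groups.

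Foxp3, the factor on which regulatory T cells depend, was the lowest of the 7 genes. It is listed on chromosome X from 7439883 to 7461484, plus strand (ENSMUSG00000039521), within a span shared with Ppp1r3f, Flicr, Gm36995 and Ccdc22. It was at 0.275, 0.288, 0.134, 0.172 and 0.238 FPKM in the CD8+4T1 samples and at 0.0767, 0.139, 0.278, 0.297 and 0.105 FPKM in the CD8+4T1+NaAc samples. The NaAc samples held both the lowest and the highest values, and only 6 to 23 fragments per sample stood behind them. Its mean was under the filter, so its test comes from a fit over the 32272 genes above 0 in any sample, of which 17.0% were called. There the difference was -0.25 (SE 0.30, interval -0.93 to 0.42, limma adjusted p = 0.619). It was -0.11 without NaAc replicate 1, the lowest sample, and -0.05 without replicate 1 of both groups (adjusted p = 0.833 and 0.959).

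Ikzf2 (Helios), an Ikaros family factor found in regulatory T cells and in activated T cells, is listed on chromosome 1 from 69570373 to 69726404, minus strand (ENSMUSG00000025997). It was at 6.35, 6.27, 5.46, 5.82 and 7.14 FPKM in the CD8+4T1 samples and at 6.49, 4.78, 5.46, 4.33 and 6.14 FPKM in the CD8+4T1+NaAc samples. The groups overlapped, with the 2 lowest values in NaAc samples. The difference was -0.20 (SE 0.12, interval -0.45 to 0.06, limma adjusted p = 0.213), it was 0.02 when samples were scaled to T cell markers, and it was -0.25 (adjusted p = 0.118) without replicate 1 of both groups. Among its relatives Ikzf1 was at 32.6 ± 1.09 and 29.8 ± 2.52 FPKM (-0.13, SE 0.06, adjusted p = 0.118) and was called lower without NaAc replicate 1 (-0.17, adjusted p = 0.0244), and Ikzf3 rose from 7.67 ± 0.314 to 8.79 ± 0.628 FPKM (0.19, SE 0.06, adjusted p = 0.0288), a call that was lost in 4 of 10 fits with a single sample removed, with an adjusted p of up to 0.0694.

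**Figure D3:**
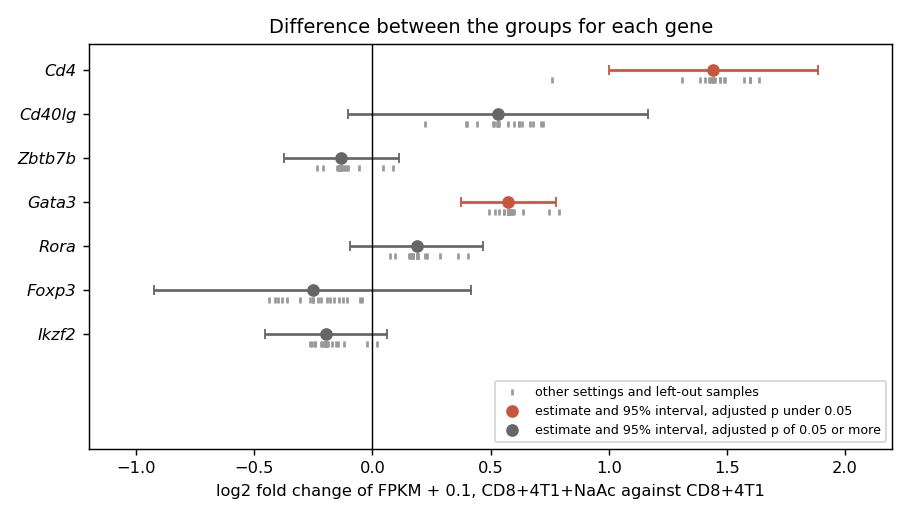
Log2 fold change of FPKM + 0.1, CD8+4T1+NaAc against CD8+4T1 (horizontal axis), for each of the 7 genes as a point with its 95% interval, red where the adjusted p was under 0.05, and in grey ticks under it the values from other settings and with samples left out. Cd4 (1.44) and Gata3 (0.57) lie above 0 with their intervals, and the intervals of the other 5 genes include 0. Foxp3 comes from the fit without a filter on low values.

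The wider helper and regulatory programs were described with 8 lists of genes, 103 different genes in all, of which 87 passed the filter. Genes that stand in 2 lists, such as Gfi1 and Cbfb, count once here and in each of their lists below. Of these 87, 27 were higher, 22 were lower and 38 did not pass the test. That is 56.3% called beside 36.5% of all genes (17.6% higher and 19.0% lower, which stand beside each list below). The median difference was 0.04 beside -0.02 over all genes. Among genes of mean at least 5 FPKM the share called was larger, 3733 of 7800, so it depends on the level. The lists were also chosen with earlier results of these data known, and the contrast with all genes was not tested. The filter was on the mean of all samples, and 6 of the 87 had a mean under 0.5 FPKM without NaAc and passed through the NaAc samples, 4 of them among the 27 higher. Of the 81 at 0.5 FPKM or more in both groups 23 were higher and 22 lower. The direction of these counts depended on the scaling. When every sample was brought to the same total FPKM, which moved the median of all genes to 0.15, 40 were higher and 12 lower, and when samples were scaled to T cell markers, which moved it to 0.20, 40 were higher and 6 lower. Scaling by median ratios, which left the median at -0.03, gave 25 higher and 23 lower. Genes of these lists named below as lower kept their call at the same total and with scaling to T cell markers unless it is said otherwise.

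The genes of lineage choice gave 5 higher and 4 lower of 16. Id3, an inhibitor of E proteins that holds T cells in a less differentiated state, rose from 6.82 ± 0.880 to 17.5 ± 3.55 FPKM (1.33, SE 0.14, limma adjusted p = 7.3e-05). Myb rose by 0.68 (SE 0.07, adjusted p = 7.5e-05) as Gfi1 did by 0.71, while Cbfb was among the lower genes. Id3 lay above its highest level without NaAc in each of the 5 NaAc samples.

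The Th1 genes gave 4 higher and 1 lower of 11, and the lower one was Tbx21. Hlx, a homeobox partner of T-bet, rose from 0.264 ± 0.0816 to 0.786 ± 0.188 FPKM (1.29, SE 0.29, limma adjusted p = 0.00554), having passed the filter through the NaAc samples alone, and the interferon-gamma receptor gene Ifngr1 from 26.6 ± 1.27 to 36.7 ± 3.45 FPKM (0.46, SE 0.07, adjusted p = 0.000383). Ifng, the defining cytokine of Th1 and CD8 effector cells, was at 480.9 ± 61.6 and 407.6 ± 107.2 FPKM and did not pass the test (-0.27, SE 0.17, adjusted p = 0.243).

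Beside Ccr8, Ccr4 and Gfi1 the higher genes of the Th2 list included Bhlhe41, a repressor of the basic helix-loop-helix family, whose call (0.81, limma adjusted p = 0.0436) was lost in 7 of 10 fits with a single sample removed, with an adjusted p of up to 0.0882. The lower gene of that list was Crem (-0.37), whose call was lost when samples were scaled to T cell markers.

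The Th17 genes gave 6 higher and 2 lower of the 9 tested, and 3 of the 6, Ahr and Il1r1 among them, passed the filter through the NaAc samples alone. Ahr, the aryl hydrocarbon receptor that Th17 cells use to make interleukin-22, rose from 0.356 ± 0.0589 to 1.51 ± 0.445 FPKM (1.77, SE 0.25, limma adjusted p = 0.000326). Il22 itself rose from 16.5 ± 2.71 to 26.9 ± 6.03 FPKM (0.69, SE 0.16, adjusted p = 0.00622). Il1r1, the receptor of interleukin-1, was higher by 0.78 (adjusted p = 0.0341), a call lost in 6 of 10 fits with a single sample removed. Irf4, which activated T cells of many kinds express, fell from 105.1 ± 5.21 to 72.1 ± 6.95 FPKM (-0.55, SE 0.07, adjusted p = 0.000164). Il17a, the defining cytokine, was at 0.570 ± 0.248 and 1.15 ± 0.668 FPKM and did not pass the test (0.49, SE 0.74, adjusted p = 0.643), while it was called higher without NaAc replicate 1 (1.27, adjusted p = 0.00534).

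The Tfh genes gave 3 higher and 2 lower of the 7 tested. Bcl6, the leading Tfh factor and also a factor of memory CD8+ T cells, rose from 1.26 ± 0.186 to 4.06 ± 0.579 FPKM (1.62, SE 0.13, limma adjusted p = 2.0e-05). Cxcr5, the receptor that brings Tfh cells into B cell follicles, rose from 3.06 ± 0.267 to 7.28 ± 0.603 FPKM (1.23, SE 0.08, adjusted p = 9.4e-06), and Il6st by 0.65 (SE 0.08, adjusted p = 0.000153). Icos, a co-stimulatory receptor of Tfh cells, fell from 77.0 ± 12.4 to 50.4 ± 5.10 FPKM (-0.60, SE 0.11, adjusted p = 0.00141). For Bcl6, Cxcr5 and Icos alike the groups did not overlap.

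The Treg genes gave 3 higher and 5 lower of the 16 tested. Nt5e (CD73), an enzyme that makes adenosine, rose from 1.87 ± 0.223 to 3.13 ± 0.626 FPKM (0.70, SE 0.14, limma adjusted p = 0.00326), Il1r2 by 0.59 (SE 0.14, adjusted p = 0.00794) and Lrrc32 (GARP) by 0.53 (SE 0.11, adjusted p = 0.00390). Tnfrsf9 (4-1BB), a co-stimulatory receptor that activated CD8+ T cells also carry, fell from 481.4 ± 18.8 to 324.2 ± 16.2 FPKM (-0.57, SE 0.05, adjusted p = 3.4e-05). Il2ra (CD25) was at 166.4 ± 5.28 and 135.7 ± 8.44 FPKM (-0.30, SE 0.05, adjusted p = 0.00157), a call that was lost at the same total (-0.12) and with scaling to T cell markers (-0.08). Ctla4 was at 41.9 ± 3.70 and 43.8 ± 5.92 FPKM (0.06, SE 0.10, adjusted p = 0.696). Genes of this list therefore went both ways while Foxp3 stayed at a few fragments per sample.

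The relatives of the 7 genes gave 2 higher, 1 of them through the NaAc samples alone, and 3 lower of the 9 tested. Ikzf3 was among the higher ones, and the lower ones were Gata1 (-0.76, limma adjusted p = 0.0472, lost in 7 of 10 fits with a single sample removed), Zbtb7a (-0.29) and Foxp1 (-0.26), whose calls were each lost at the same total and with scaling to T cell markers. The partner proteins gave 2 higher and 5 lower of 12, with Zfpm1 the largest rise, Cbfb the largest fall and Traf6, an adaptor of CD40 signalling, lower (-0.35), a call lost when samples were scaled to T cell markers. The other higher one, Traf5 (0.38, adjusted p = 0.0495), lost its call in 8 of 10 fits with a single sample removed and was at 0.21 without replicate 1 of both groups.

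**Figure D4:**
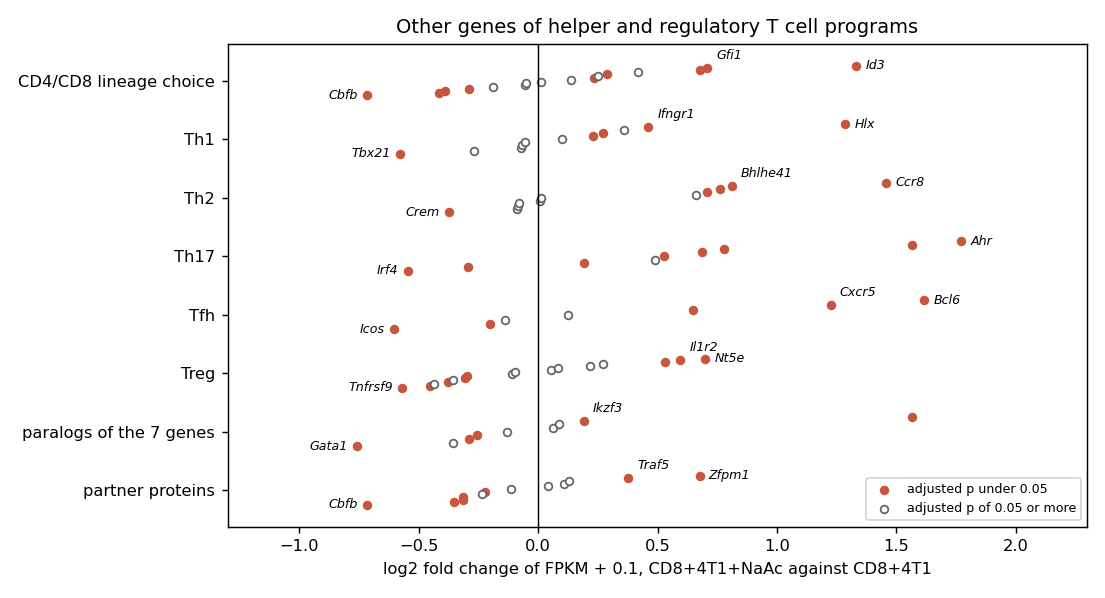
Log2 fold change of FPKM + 0.1, CD8+4T1+NaAc against CD8+4T1 (horizontal axis), of the 87 tested genes of the 8 lists, 1 point for each list a gene stands in, in red where the adjusted p was under 0.05, with names at the ends of each list. The called points cover 27 genes to the right of 0 and 22 to the left, with Ahr (1.77) and Bcl6 (1.62) farthest to the right and Gata1 (-0.76) and Cbfb (-0.72) farthest to the left.

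Markers of the tumor line also differed between the groups. Of 20 genes of 4T1 and other epithelial cells 12 passed the filter, and 8 of these were higher and none lower with NaAc. Over all genes tested 17.6% were higher and 19.0% lower. Krt7 and Cldn3 passed through the NaAc samples alone, and of the 10 genes at 0.5 FPKM or more in both groups 6 were higher. The summed level of the 20 genes was 81.1 to 98.5 FPKM without and 163.8 to 314.9 FPKM with NaAc, and Krt8, an epithelial keratin, rose from 3.42 ± 1.69 to 34.2 ± 13.1 FPKM (3.33, SE 0.35, limma adjusted p = 8.1e-05). Without NaAc most of the sum was Cd24a (mean 43.6 FPKM) and Spint2 (mean 20.7 FPKM). These differed by only 0.20 (limma adjusted p = 0.0096) and -0.11 (adjusted p = 0.141). Gata3 is also a factor of mammary luminal epithelium. In replicates 1 to 5 the sum was 81.1, 82.9, 83.9, 95.2 and 98.5 FPKM without and 171.9, 314.9, 220.8, 245.4 and 163.8 FPKM with NaAc. Replicate 5, with the highest sum without NaAc, also had the highest Gata3 of its group. With NaAc, replicate 2 had the highest sum and the highest Cd4, replicate 4 the second highest sum and the highest Gata3, and replicate 5 the lowest sum, the lowest Gata3 and the second highest Cd4. Not all samples followed such an order. NaAc replicate 2 had Gata3 at 6.36 FPKM, near the lowest of its group (6.28 FPKM). Without NaAc the highest Cd4 (0.796 FPKM) was in replicate 2, which had a sum of 82.9 FPKM. Replicate 4 without NaAc had a sum of 95.2 FPKM and Cd4 at 0.467 FPKM. The part of these cells in the results for Cd4, Gata3 and the lists was not tested.

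T cell markers were lower in part. Of 9 genes 5 were lower and none higher (Cd3d, Cd3e, Cd3g, Cd2 and Cd5), beside 19.0% lower and 17.6% higher over all genes tested. Cd3e, a chain of the T cell receptor complex, went from 33.8 ± 1.07 to 26.3 ± 2.06 FPKM (-0.36, SE 0.06, limma adjusted p = 0.000608). The calls of Cd2 and Cd5 were lost when samples were brought to the same total, and that of Cd2 also in 8 of 10 fits with a single sample removed, with an adjusted p of up to 0.0866. The scaling to T cell markers uses these 9 genes and is no test of them. Trac was called higher without NaAc replicate 1 (0.39, adjusted p = 0.000997). The sum of the 9 genes was 827.1 to 988.3 FPKM without and 607.2 to 926.6 FPKM with NaAc, lowest in NaAc replicate 1. Other cells that carry Cd4 RNA in the mouse are some macrophages and dendritic cells. Of 10 macrophage and monocyte genes 3 passed the filter and 1, Lyz2, was higher (0.96, adjusted p = 0.0328), a call lost in 6 of 10 fits with a single sample removed, while their sum overlapped (25.2 to 34.5 against 25.9 to 29.8 FPKM). Most of that sum was Cd68 (mean 25.8 FPKM without and 22.8 with NaAc), and of the others Cd14 was at 3.21 and 3.89, Lyz2 at 0.536 and 1.12, Adgre1 at 0.203 and 0.227, Itgam at 0.0550 and 0.107 and Csf1r at 0.0707 and 0.0860 FPKM, with C1qb at 0 in every sample. Cd68 did not pass the test (-0.17, limma adjusted p = 0.133). It was called lower in 1 of 10 fits with a single sample removed, the one without CD8+4T1 replicate 1. Over these 10 fits its difference was -0.23 to -0.13. Of 7 dendritic cell genes 2 passed and none was called, and their sum was 2.54 to 3.81 against 2.23 to 3.45 FPKM. Zbtb46 was at 1.92 and 1.75 and Itgax at 1.05 and 1.11 FPKM, while Flt3, Xcr1 and Clec9a had means of at most 0.0738 FPKM and Siglech and Cd209a were at 0.

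B cell, NK cell and gamma-delta or NKT cell genes summed to at most 6.58 FPKM in any sample, and ILC2 genes to more. Of 6 B cell genes 2 passed and none was called (sum 4.28 to 5.27 against 5.19 to 6.58 FPKM, Ms4a1 at 0 without and at most 0.0191 FPKM with NaAc), while Cd79b was called higher without NaAc replicate 1 (0.50, limma adjusted p = 0.0128). Of 6 NK cell genes 1 passed and none was called (0.421 to 1.57 against 0.938 to 1.88 FPKM). Among them Fcer1g was at 0.633 and 0.624, Tyrobp at 0.252 and 0.725 and Ncr1 at 0.0227 and 0.0932 FPKM, with Klra4 at 0. Of 4 gamma-delta and NKT cell genes found 1 passed and none was called (1.14 to 1.65 against 1.65 to 2.27 FPKM, overlapping slightly). Of 5 genes of group 2 innate lymphoid cells (ILC2), which depend on Gata3 and Rora, 3 passed and 1, Areg, which T cells and epithelial cells also express, was higher (11.7 ± 1.16 against 31.0 ± 5.33 FPKM, 1.38, SE 0.11, limma adjusted p = 2.2e-05). Il13, a cytokine of Th2 cells and ILC2, was at 26.1 ± 2.34 and 25.2 ± 5.93 FPKM (-0.08, adjusted p = 0.706). The sum over the ILC2 genes was 34.7 to 42.5 FPKM without and 42.9 to 65.4 FPKM with NaAc, higher in every NaAc sample than in any without, with Il1rl1 at 0.0768 and 0.142 FPKM and Il17rb at 0.259 and 0.249 FPKM. Most of this sum was Areg and Il13, of which Areg alone was called. The part of any of these cells in the results for Cd4 and Gata3 was not tested.

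**Figure D5:**
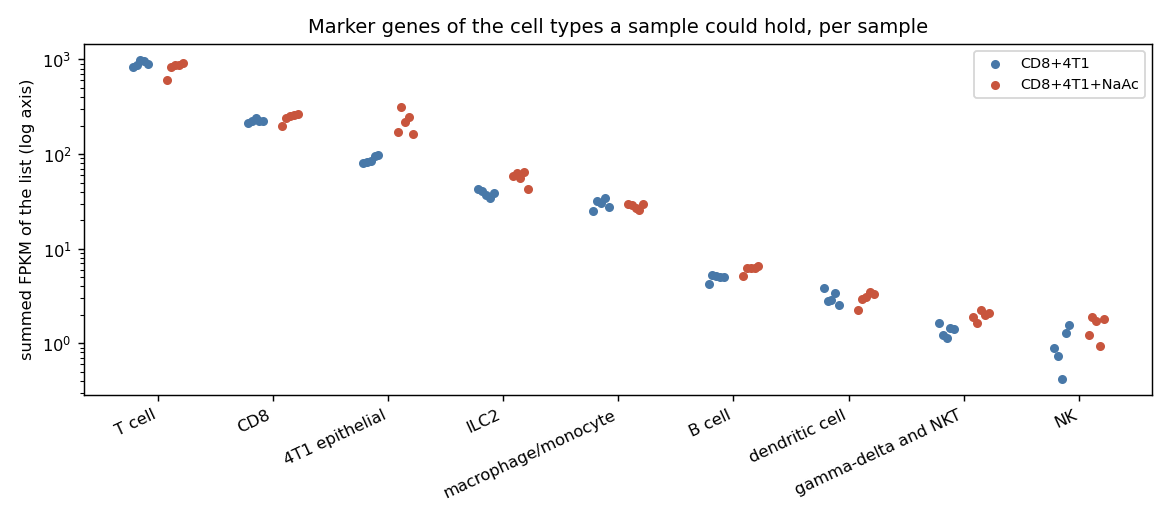
Summed FPKM (vertical axis, log scale) of the marker genes of each cell type, 1 point per sample, for CD8+4T1 (blue) and CD8+4T1+NaAc (red). The sums of the T cell, CD8, macrophage, dendritic cell, B cell, and NK genes overlap between the groups, those of the 4T1 epithelial genes are separate (81.1 to 98.5 against 163.8 to 314.9 FPKM), those of the gamma-delta and NKT genes overlap slightly (up to 1.65289 against from 1.65185 FPKM), and those of the ILC2 genes are separate by a narrow gap (up to 42.5 against from 42.9 FPKM).

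The genes with the most similar pattern over the 10 samples were picked by Pearson r of log2(FPKM + 0.1) among protein-coding genes whose mean reached 5 FPKM, as a description of samples that share 2 groups. Cd4 was most like Asah1 (r = 0.97), Prl2c3 (0.96) and Pla1a (0.96), and Gata3 most like Rapgef1 (0.98), Gfi1 (0.98) and Irs2 (0.97). Zbtb7b was most like Cbx6 (0.97), Lrrc59 (0.97) and Dlat (0.96), Rora most like Aplp1 (0.91), Usf3 (0.91) and Cenpe (0.89), Cd40lg most like Nsd2 (0.92), Phaf1 (0.89) and St3gal4 (0.88), and Ikzf2 most like Ppp4r2 (0.91), Cep83 (0.89) and Rnf115 (0.88). After group means were taken off, r was 0.72, 0.62 and 0.62 for the 3 genes of Cd4, 0.90 to 0.94 for those of Gata3, 0.96 to 0.99 for those of Zbtb7b and 0.82 to 0.92 for those of the other 3. No gene was among the 3 most alike of more than 1 of these 6 genes.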

How the data were processed

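RNA of CD8+ T cells from a co-culture with 4T1 cells was sequenced in 10 samples, 5 per group, with groups and replicate numbers taken from the sample labels and doses and hours from the methods. The authors deposited FPKM, a column for each sample, beside other columns for gene position and length. Per the labels' processing notes, fastp, HISAT2 2.0.5, StringTie 1.3.3b and featureCounts 1.5.0-p3 were used, and the methods name StringTie, featureCounts and DESeq2. Genome build and strand setting are not given in the sources used here. Positions are printed as deposited and are not those of GRCm38 (1430 of 52073 shared genes have the same position). Within a sample, FPKM multiplied by gene length came in whole multiples (within 0.1) of a single step, the worth of 1 fragment, and this step gave the fragments per gene and the total the sample was scaled to (16306447 to 18853726).

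Genes whose mean reached 0.5 FPKM were tested on log2(FPKM + 0.1) with limma 3.58.1 (trend and robust moderation, R 4.3.3), without a replicate block, and p-values were adjusted by Benjamini-Hochberg over all genes tested. Fold changes on this scale understate those of low genes. Foxp3, under the filter, was taken from a fit over all 32272 genes above 0 in any sample. The 3 ratios within samples were compared by exact permutation tests (SciPy 1.17.1). The script was tested on simulated data. Whether replicate numbers pair the samples was checked by the correlation of deviations from group means.

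Members and lists were chosen with earlier results of these data known. Genes named in the text were the 7 members, their direct partners, up to 4 called genes of each list with the largest change, the genes that lead each marker list and the 3 genes most like each member. Irf4, Crem, Ifng, Il13, Il4, Il5, Il17a, Trac, Cd79b, Krt7, Cldn3, Cd5 and the marker genes given for their part in a sum or for their low or zero levels fell outside that rule and were named after their values were seen. The alternatives were other pseudocounts, filters, scalings, moderation, voom on recovered fragments, a replicate block and leaving out samples. Promoter sequences came from RefSeq by symbol (GRCm38.p6), and none was matched for Cd4, Cd40lg and Ikzf2. Other experiments of the study were not analysed here. Many genes of the lists count in the totals without being named. Of the genes that the naming rule covers, 2 are not reported by name.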

Additional observations from a re-analysis of the deposited data

Results flagged for a closer look

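In 22 groups of 5 samples, the gap between the most extreme sample and its nearest neighbour was compared with the whole range, and a share above 0.71 was set apart, which chance gives in about 1 of 20 groups. 3 values were set apart. The Gata3 to Tbx21 ratio of CD8+4T1 replicate 5 (10.9% against 7.72% to 8.23% in the other 4 samples) had a share of 0.818, and this sample had the highest Gata3 (5.39 FPKM) and the lowest Tbx21 (49.6 FPKM) of its group. The number of genes above 0 was low in CD8+4T1 replicate 1 (22291, share 0.848) and in CD8+4T1+NaAc replicate 1 (20233, share 0.916). Among the 7 genes, CD8+4T1+NaAc replicate 1 was the highest of all samples for Zbtb7b (16.4 FPKM) and Rora (6.30 FPKM) and the lowest for Foxp3 (0.0767 FPKM).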

How the results depend on the processing

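Cd4 and Gata3 kept their direction and call in each setting that tested them and with each sample left out: Cd4 from 0.76 (pseudocount 1) to 1.63 and, with samples left out, 1.31 to 1.57, and Gata3 from 0.49 to 0.79 and 0.52 to 0.64. Zbtb7b turned to 0.045 at the same total FPKM and to 0.087 when scaled to T cell markers, as Ikzf2 did to 0.019, and Rora reached 0.36 (limma adjusted p = 0.0486) at the same total. Zbtb7b passed the test at -0.21 without replicate 1 of both groups, which made 1 member called lower, and ranged from -0.24 to -0.057 with single samples left out, where 0 to 1 members were called lower. The Zbtb7b to Runx3 ratio ranged from -0.0064 (without NaAc replicate 2) to 0.12. With a mean of at least 5 FPKM, which tests fewer genes, 1 member, 15 helper list genes higher and 3733 genes were called, 203 of them past both thresholds, against 476 with a pseudocount of 1 and 1016 as reported. Helper list genes called lower were 12 at the same total and 6 when scaled to T cell markers. The cause of the changes with scaling was not tested. The correlation of deviations showed little sign that replicate numbers pair the samples (-0.03 to 0.07, 2 of 5 samples best with their own number). Such weak correlations cannot decide whether samples of the same number shared a donor or batch. Replicate 1 had the fewest genes above 0 in both groups and was best with its own number. With the replicate block Cd4 (adjusted p = 0.00217) and Gata3 (adjusted p = 0.00504) kept their calls, and the Cd4 to Cd8a (1.48) and Gata3 to Tbx21 (1.15) ratios had an exact permutation p of 0.0625, the smallest that 5 pairs allow (adjusted 0.0938). Fragments per sample, 6 to 23 for Foxp3 and 6 to 22 for Cd40lg, limit what could be detected for these genes.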
